A study of Mus musculus with 6 samples.

Results

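Of the 19 crypt stem cell and Wnt target genes sought by name, 10 were present among the 1386 genes that the authors deposited for this experiment. These 10 were Olfm4, Smoc2, Slc12a2, Lrig1, Ephb2, Cd44, Znrf3, Sox9, Cdca7 and Myc. All 10 were listed as lower in mice given Akkermansia muciniphila (Akk), a gut bacterium that feeds on mucus, as were 1040 of the 1386 genes (75%). Lgr5, Ascl2, Axin2, Rnf43, Tnfrsf19, Prom1, Msi1, Rgmb and Igfbp4 were not listed. The deposited table holds only genes with a p-value up to 0.0498 and at least a 1.5-fold difference between the groups, so a gene that is not listed either missed these limits or was not measured. For the same reason the direction of each listed gene was fixed by the selection, and the tests below are made on libraries that had already chosen the genes. An adjusted p over genes selected in this way does not hold the share of false calls at its threshold. To pass below means only to fall under that threshold.

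RNA came from intestinal epithelial cells of wild-type mice kept on regular chow. The Akk group received 400000000 bacteria by mouth each day for 7 weeks from an age of 8 weeks, and the PBS group received phosphate-buffered saline. Each group had 3 libraries. The labels name neither the strain nor the sex of the mice, and whether the libraries stem from separate mice is not stated, so the spread between libraries may be partly technical. Of 6 general epithelial markers Krt19 was listed, and of 15 leukocyte and 13 stromal or muscle markers none was; a table of selected genes cannot show the level of the others.

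The intestinal epithelium is renewed from stem cells at the base of the crypts. Wnt ligands bind Frizzled and Lrp receptors, which stabilizes beta-catenin, and beta-catenin then activates target genes together with TCF/LEF factors. R-spondins, acting through the Lgr receptors, strengthen the signal by removing the ubiquitin ligases Rnf43 and Znrf3, which otherwise clear Frizzled from the membrane. Daughter cells divide in the upper crypt, lose the Wnt signal as they move up and differentiate on the villus, while Paneth cells stay beside the stem cells at the crypt base.

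The implied sequencing depth was 23614091 to 29441073 fragments per library. PBS replicate 2 was unlike the other libraries. The listed genes took 23.6% of its fragments, against 11.95% to 16.8% in the other 5 libraries, and 1022 of the 1040 genes listed as lower had their highest value in it. Across the listed genes its log2 CPM correlated at 0.76 and 0.73 with PBS replicates 1 and 3, which correlated at 0.98 with each other; this is across genes, which are not independent. The fold changes of the genes below are therefore given with PBS replicate 2 and without it.

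The upstream sequence of 4 of the 10 genes described next is shown, chosen among those with a promoter entry. Olfm4 and Cdca7 were far higher in PBS replicate 2 and did not pass the test without it. Ephb2 and Lrig1 had a smaller excess in PBS replicate 2 and passed the test without it. These 4 do not stand for all 10 genes. Slc12a2 and Smoc2 had a large excess and passed, while Cd44, Sox9 and Znrf3 had a smaller excess and did not pass. RefSeq promoters (GRCm38.p6) were found for 5 of the 10 genes, namely Olfm4, Ephb2, Cd44, Cdca7 and Lrig1; there were no entries for Smoc2, Slc12a2, Sox9, Znrf3 and Myc. The 250 bases before the annotated start are printed 5′ to 3′ on the strand of the gene, for Olfm4 at chr14:80000052-80000301 (plus strand), Cdca7 at chr2:72475969-72476218 (plus), Ephb2 at chr4:136836013-136836262 (minus) and Lrig1 at chr6:94700146-94700395 (minus). The Olfm4 window lies inside the annotated gene, whose outermost start belongs to a longer transcript, and the windows of Cdca7 and Lrig1 overlap the outermost bases of their annotated genes. Capitals mark a match to GTGGGAA (the core bound by RBPJ, the Notch effector) or GGGCGG (the GC box) on either strand.
Olfm4: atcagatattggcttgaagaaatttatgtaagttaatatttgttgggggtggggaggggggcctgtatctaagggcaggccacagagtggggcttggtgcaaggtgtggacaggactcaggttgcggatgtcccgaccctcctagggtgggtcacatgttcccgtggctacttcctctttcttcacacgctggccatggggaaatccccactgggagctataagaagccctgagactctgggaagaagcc
Cdca7: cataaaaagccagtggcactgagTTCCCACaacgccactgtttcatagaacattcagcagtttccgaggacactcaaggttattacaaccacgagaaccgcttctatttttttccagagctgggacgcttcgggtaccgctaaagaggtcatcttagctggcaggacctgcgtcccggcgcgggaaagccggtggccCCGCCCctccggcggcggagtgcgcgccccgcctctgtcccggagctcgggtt
Ephb2: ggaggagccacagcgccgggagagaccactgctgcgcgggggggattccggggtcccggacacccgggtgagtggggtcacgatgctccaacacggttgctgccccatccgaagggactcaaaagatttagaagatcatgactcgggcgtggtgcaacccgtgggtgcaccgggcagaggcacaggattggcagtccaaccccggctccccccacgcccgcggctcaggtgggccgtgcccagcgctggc
Lrig1: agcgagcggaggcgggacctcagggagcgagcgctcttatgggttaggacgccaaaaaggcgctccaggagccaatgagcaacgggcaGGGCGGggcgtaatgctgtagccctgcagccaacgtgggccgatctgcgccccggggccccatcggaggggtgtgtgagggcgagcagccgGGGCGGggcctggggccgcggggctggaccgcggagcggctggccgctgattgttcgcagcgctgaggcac
The TCF/LEF core CTTTGA, searched on both strands, was in none of the 5 windows and in 13.83% of all 32851 RefSeq windows of this length. GTGGGAA was in the Cdca7 window, 227 to 221 bases before the start on the opposite strand, and in 5.42% of all windows. GGGCGG was in the windows of Cdca7 and Lrig1 and in 32.74% of all windows, and CACGTG (the E-box bound by Myc) was in none of the 5 and in 6.02% of all. CpG dinucleotides numbered 4 in Olfm4, 5 in Cd44, 20 in Ephb2, 21 in Cdca7 and 26 in Lrig1, against a median of 6. These are matches of letters in a short window and say nothing of binding.

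Among the markers of the crypt base, Olfm4, a secreted olfactomedin-family glycoprotein of stem cells (plus strand of chromosome 14, 79984081 to 80023139 in GRCm38), had FPKM values of 4.33, 6.58 and 4.17 in Akk replicates 1 to 3. FPKM counts fragments per length of the gene and per depth of the library. In PBS replicates 1 to 3 the FPKM of Olfm4 was 7.66, 498 and 9.63. All Akk libraries lay below all PBS libraries, the nearest pair being Akk replicate 2 and PBS replicate 1. With 47008 fragments Olfm4 took 0.199% of the depth of PBS replicate 2, against 0.0017% to 0.0038% in the other libraries. Its log2 fold change of counts, Akk over PBS, was -5.09 (SE 1.61) in the fit of all libraries, or -0.78 (SE 0.269) without PBS replicate 2. A long non-coding RNA gene on the same strand, Gm6999, overlaps Olfm4.

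Slc12a2, the sodium-potassium-chloride cotransporter of the basolateral membrane (chromosome 18, 57878678 to 57946821, plus strand), had an FPKM of 0.609, 0.807 and 0.531 in Akk. In PBS its FPKM was 1.40, 52.8 and 1.15. The groups did not overlap, and PBS replicates 1 and 3 had 1.97 times the mean CPM of Akk. CPM here is the count scaled to the implied depth. The log2 fold change was -4.82 (SE 1.5), or -0.98 (SE 0.256) without PBS replicate 2.

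Smoc2, a secreted calcium-binding matrix protein (chromosome 17, 14279506 to 14404790, plus strand), had an FPKM of 0.528, 0.653 and 0.483 in Akk. Its FPKM in PBS was 1.14, 25.7 and 1.39. The 3 Akk libraries again lay below all PBS libraries, with counts of 63, 73 and 51 against 121, 2443 and 154. The log2 fold change was -4.07 (SE 1.31), or -1.18 (SE 0.270) without PBS replicate 2. An antisense gene, 4930474M22Rik, overlaps Smoc2, and since the strand setting of the counting is not given in the sources used here their reads cannot be told apart.

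**Figure D1:**
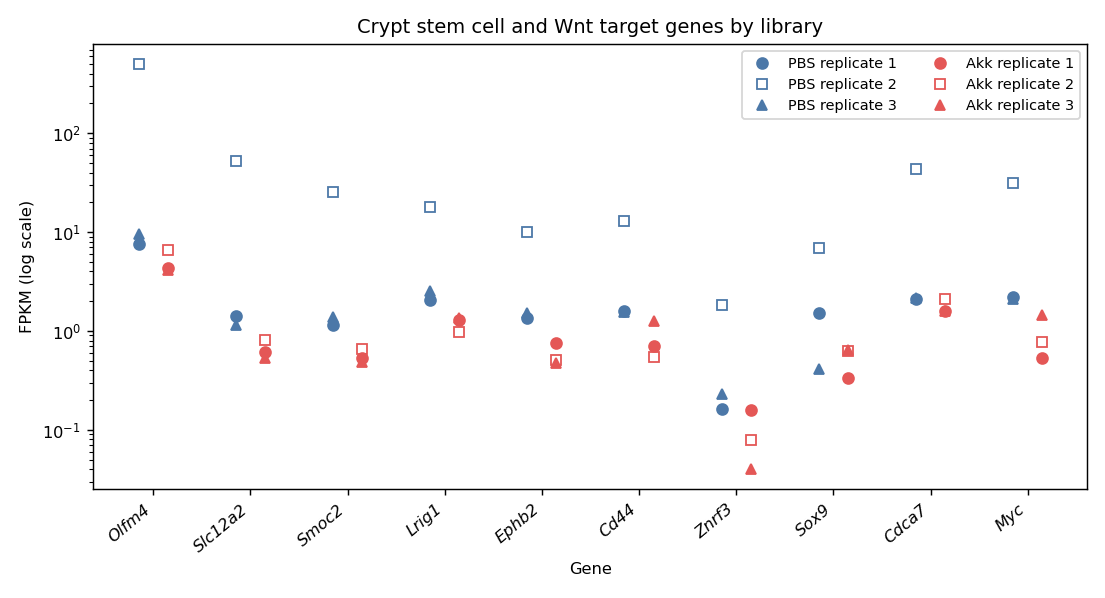
FPKM (log axis) of the 10 stem cell and Wnt target genes in each of the 6 libraries; blue is PBS, red is Akk, and the marker shape gives the replicate number. PBS replicate 2 (open blue square) is the highest library for all 10 genes, and Sox9 is the gene where a PBS library (replicate 3, FPKM 0.412) lies among the Akk libraries.

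Of the membrane receptors and signal regulators, Ephb2 had the largest difference of the 10 genes once PBS replicate 2 was left out. Ephb2 is the receptor tyrosine kinase for B-type ephrins that helps place cells along the crypt axis (chromosome 4, 136647539 to 136835988, minus strand). It had 202, 218 and 186 counts in Akk and 555, 3019 and 652 in PBS. In CPM these were 6.86, 7.89 and 7.18 against 21.2, 128 and 23.7, so that the Akk libraries lay close together (coefficient of variation 7.22%) and well below every PBS library. The fitted log2 fold change came to -2.98 (SE 0.846), and to -1.62 (SE 0.193) when PBS replicate 2 was left out. In FPKM the difference was smaller, with 0.754, 0.507 and 0.469 in Akk and 1.37, 10.1 and 1.53 in PBS. Akk replicate 1 was the lowest library of Ephb2 in CPM and the highest of the Akk group in FPKM, since its fragments per unit of FPKM, corrected for depth, were 0.665 times the gene's mean over the libraries.

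Lrig1, a transmembrane protein that restrains ErbB receptors (chromosome 6, 94604529 to 94700158, minus strand), had an FPKM of 1.28, 0.981 and 1.35 in Akk. Its FPKM in PBS was 2.06, 17.8 and 2.51. Again no Akk library reached a PBS library, and the log2 fold change was -2.62 (SE 0.932), or -0.92 (SE 0.230) without PBS replicate 2. Slc25a26, on the opposite strand, and Mir7041 overlap the annotated Lrig1 gene. As for Smoc2, reads of Lrig1 and Slc25a26 cannot be told apart where they overlap, since the strand setting is not given.

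Cd44, the hyaluronan receptor and a gene with many splice forms (chromosome 2, 102811141 to 102901665, minus strand), had an FPKM of 0.711, 0.549 and 1.25 in Akk. In PBS its FPKM was 1.58, 12.9 and 1.56. Akk replicate 3 was the nearest to the PBS libraries, and the groups did not overlap. Its counts gave a log2 fold change of -2.46 (SE 0.966), or -0.75 (SE 0.273) without PBS replicate 2. A small nuclear RNA gene on the opposite strand, Gm23731, overlaps Cd44, with the same limit on telling their reads apart.

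Znrf3, the ubiquitin ligase that removes Frizzled and is itself a Wnt target (chromosome 11, 5276324 to 5444847, minus strand), was the least abundant of the 10 genes, with an FPKM of 0.159, 0.0797 and 0.0403 in Akk and 0.164, 1.84 and 0.231 in PBS. These values rest on 40, 20 and 8 counts in Akk and on 39, 336 and 58 in PBS. In Akk replicate 1 the CPM of 1.36 had an exact Poisson 95% interval of 0.971 to 1.85, which contains the 1.49 of PBS replicate 1; such intervals cover counting error only. Those 2 libraries were not distinguishable at this depth. The log2 fold change was -2.89 (SE 1.03), or -1.16 (SE 0.585) without PBS replicate 2. Its partner Rnf43 was not listed.

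Of the nuclear factors, Sox9 did not separate the groups. Sox9, a transcription factor of stem and Paneth cells (chromosome 11, 112782224 to 112787760, plus strand), had an FPKM of 0.334, 0.622 and 0.641 in Akk. In PBS its FPKM was 1.51, 6.84 and 0.412. PBS replicate 3, with 67 counts, lay below Akk replicates 2 and 3, which had 102 and 98. For Sox9 the log2 fold change was -2.45 (SE 1.06), or -0.85 (SE 0.562) without PBS replicate 2.

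Cdca7, a chromatin protein of dividing cells (chromosome 2, 72476159 to 72486893, plus strand), had an FPKM of 1.58, 2.09 and 1.58 in Akk. Its FPKM in PBS was 2.10, 43.0 and 2.15. Akk replicate 2 and PBS replicate 1 were almost level, at 7.24 and 7.27 CPM. Outside PBS replicate 2 the gene was within 1.21-fold between the group means, and the log2 fold change moved from -3.16 (SE 1.23) to -0.28 (SE 0.232).

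Myc, the growth-promoting transcription factor (chromosome 15, 61985391 to 61990374, plus strand), had an FPKM of 0.530, 0.779 and 1.44 in Akk. In PBS its FPKM was 2.21, 31.4 and 2.10. The groups did not overlap, and Akk replicate 3 was the highest of its group for Myc as it was for Cd44. The log2 fold change was -3.69 (SE 1.25), or -1.17 (SE 0.417) without PBS replicate 2.

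With all libraries 0 of the 10 genes passed the quasi-likelihood test of edgeR at an adjusted p of 0.05, as did 0 of all 1386 genes (0%). The adjusted p was 0.0861 for 9 of the 10 genes and 0.0864 for Sox9, with Benjamini-Hochberg adjustment over all listed genes. The smallest adjusted p of all listed genes was also 0.0861, so this shared value does not rank the genes. An unadjusted p under 0.05 was seen for all 10, from 0.0076 (Ephb2) to 0.048 (Sox9), where 57.1% of all listed genes had one. DESeq2 called 5 of the 10 as lower, namely Sox9, Znrf3, Ephb2, Cd44 and Lrig1, where it called 51.4% of all listed genes lower. Of the 1040 genes listed as lower it called 712. It gave no p-value for the other 5 genes, Olfm4, Smoc2, Slc12a2, Cdca7 and Myc, and no adjusted p for 18.9% of all listed genes. The 5 of the 10 that it called were thus all those to which it gave a p-value. The 5 without a p-value had the largest excess in PBS replicate 2, at 15.3 to 57.6 times the mean CPM of PBS replicates 1 and 3. Non-overlapping groups, with all Akk libraries below all PBS libraries in CPM, were seen for 9 of the 10, all but Sox9, and for 65.9% of all listed genes. Among the 1040 genes listed as lower, 913 had non-overlapping groups. The 9 include Cdca7, whose nearest libraries were almost level (7.24 CPM in Akk replicate 2, 7.27 in PBS replicate 1). They also include Znrf3, whose nearest libraries were not distinguishable (1.36 CPM in Akk replicate 1, 1.49 in PBS replicate 1).

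Without PBS replicate 2, 4 of the 10 genes passed the edgeR test as lower in Akk, where 17.7% of all listed genes did. Of the 1040 genes listed as lower, 246 passed there. The 4 of the 10 that passed were Ephb2 (adjusted p = 0.0157), Smoc2 (0.0411), Lrig1 (0.0435) and Slc12a2 (0.045). Olfm4, Myc and Cd44 had an adjusted p of 0.0643, 0.0694 and 0.0705, and Znrf3, Sox9 and Cdca7 of 0.124, 0.194 and 0.281. Of the 10 genes the same 9 did not overlap between Akk and PBS replicates 1 and 3, where 66% of all listed genes did not. Among the 1040 genes listed as lower, 916 did not overlap there. The 9 again include Cdca7 and Znrf3, whose nearest libraries were almost level or not distinguishable. Over the 10 genes the fitted log2 fold changes had a median of -3.07, which moved to -0.95 without PBS replicate 2, beside -1.85 and -0.66 for all listed genes and -2.19 and -0.78 for the 1040 listed as lower. With PBS replicate 1 or PBS replicate 3 left out instead, 9 and 10 of the 10 genes passed as lower, where 52.2% and 50.9% of all listed genes did. In the authors' deposited table the log2 fold changes of the 10 ran from -1.80 (Ephb2) to -1.12 (Sox9), closer to 0 than the fitted values with all libraries; how they were computed is not given.

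**Figure D2:**
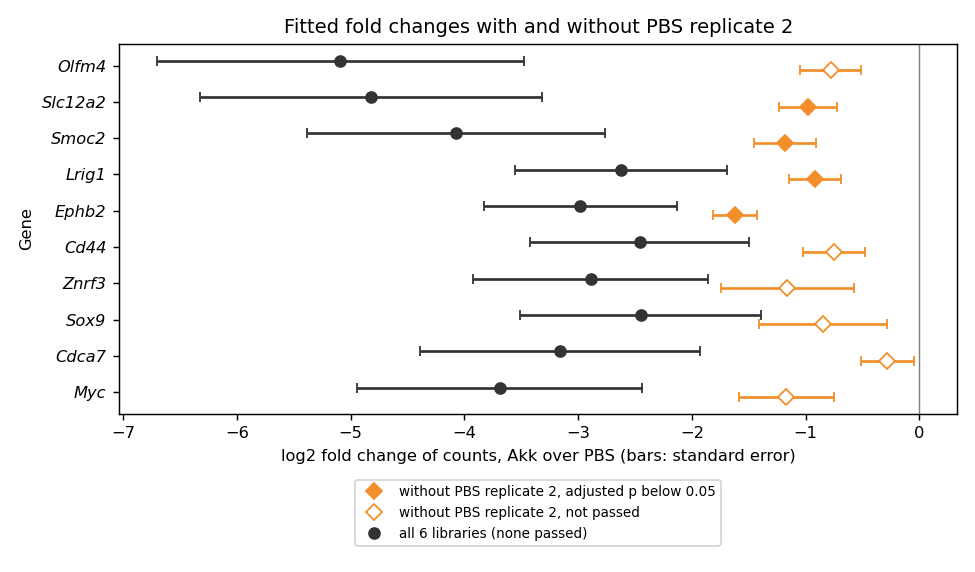
Fitted log2 fold change of counts (Akk over PBS) of each gene with its standard error, with all 6 libraries (black circles) and without PBS replicate 2 (orange diamonds, filled where the adjusted p was below 0.05). All values lie below 0, and those without PBS replicate 2 lie between -1.62 (Ephb2) and -0.28 (Cdca7).

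All 10 genes had their highest CPM in PBS replicate 2, as did 73.9% of all listed genes and 1022 of the 1040 listed as lower. The 10 differed in how far they exceeded the other PBS libraries there. In CPM the ratio of PBS replicate 2 to the mean of PBS replicates 1 and 3 was 57.6 for Olfm4, 41.2 for Slc12a2, and 20.2 for both Smoc2 and Cdca7. It was 15.3 for Myc and lay between 5.69 and 7.90 for Ephb2, Sox9, Lrig1, Cd44 and Znrf3. By this ratio Olfm4 ranked 3 and Slc12a2 ranked 16 among the 1040 genes listed as lower, while Ephb2 ranked 527. The median over the 10 genes was 11.6, beside 5.74 over all genes listed as lower. The ratio of PBS replicates 1 and 3 to Akk ordered the genes otherwise, from 3.07 for Ephb2 down to 1.21 for Cdca7, with a median of 1.93 beside 1.72. Olfm4, first by the excess in PBS replicate 2, had a ratio of 1.72 here.

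**Figure D3:**
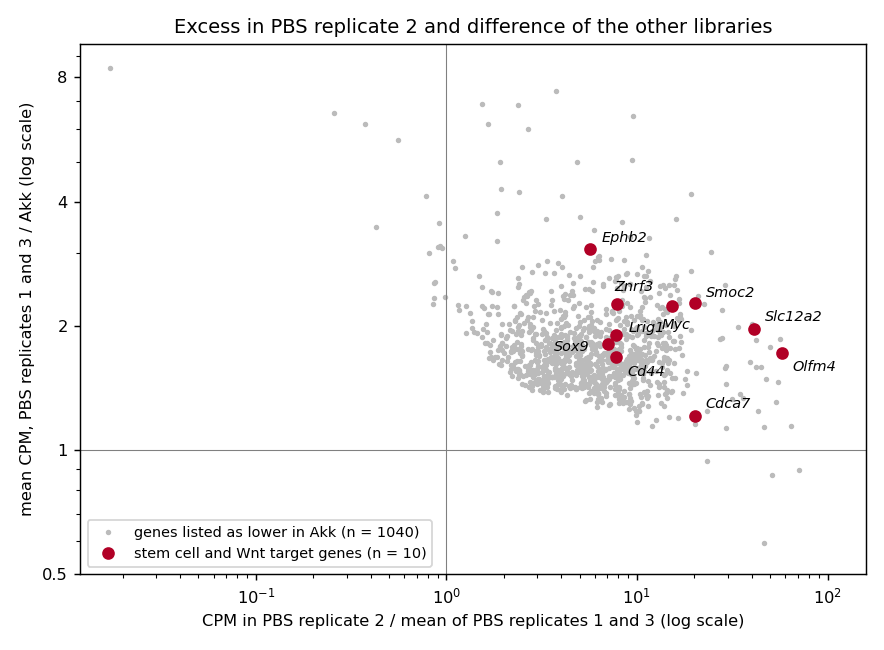
For the 1040 genes listed as lower in Akk, the CPM of PBS replicate 2 over the mean of PBS replicates 1 and 3 (x, log axis) against the mean CPM of PBS replicates 1 and 3 over that of Akk (y, log axis); red points are the 10 stem cell and Wnt target genes. Both ratios use PBS replicates 1 and 3; Olfm4 and Slc12a2 lie far to the right (57.6 and 41.2) and Ephb2 highest of the 10 (3.07).

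Per gene length, Olfm4 was the most abundant of the 10 in every library. In Akk the mean FPKM was 5.03 ± 1.35 (SD, n = 3) for Olfm4, 1.75 ± 0.293 for Cdca7, 1.21 ± 0.197 for Lrig1 and 0.918 ± 0.473 for Myc, with Lrig1 and Myc within the spread of each other. Cd44, Slc12a2, Ephb2, Smoc2 and Sox9 followed between 0.837 and 0.532, each within the spread of its neighbours in that order, and Znrf3 was lowest at 0.0931 ± 0.0606. In PBS replicate 2 the order was Olfm4, Slc12a2, Cdca7, Myc and Smoc2, from 498 to 25.7 FPKM, and Slc12a2 thus stood second where it had been sixth in Akk. Olfm4 made up 71.1% of the summed FPKM of the 10 genes in PBS replicate 2 and 34.9% to 48.2% in the other libraries.

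Markers of other crypt cells were high in the same library. Of 32 proliferation genes 30 were listed, and of 18 Paneth cell markers 14, all as lower in Akk. All of these were highest in PBS replicate 2, as were 73.9% of all listed genes and 1022 of the 1040 listed as lower. By edgeR 0 of the 30 and 0 of the 14 passed when all libraries were used. Without PBS replicate 2, 10 of the 30 proliferation genes and 0 of the 14 Paneth markers passed as lower, where 17.7% of all listed genes did. Of the 1040 genes listed as lower, 246 passed there. The summed FPKM of the 10 stem cell and Wnt target genes was 10.8 to 13.6 in Akk, 21.2 and 22.7 in PBS replicates 1 and 3, and 701 in PBS replicate 2. That of the listed proliferation genes was 44.1 to 62.3 in Akk, 104.7 and 86.6 in PBS replicates 1 and 3, and 1024 in PBS replicate 2. Listed Paneth markers summed to 188 to 224 in Akk, 249 and 281 in PBS replicates 1 and 3, and 10325 in PBS replicate 2. Of 19 markers of villus enterocytes 4 were listed (Apoa4, Apoc3, Apob and Ada), all higher in Akk, as were 346 of the 1386 listed genes. By edgeR 0 of the 4 passed with all libraries. Without PBS replicate 2 again 0 passed, where 1.73% of all listed genes passed as higher. Ada overlapped between the groups. These 4 summed to 5030 to 6506 in Akk, to 2382 and 4002 in PBS replicates 1 and 3 and to 680 in PBS replicate 2. Most of each sum was Apoa4, with an FPKM of 3660 to 5057 in Akk, 1811 and 3101 in PBS replicates 1 and 3, and 467 in PBS replicate 2. Of 6 genes taken as pancreas markers only the colipase Clps was listed. It had an FPKM of 66.1 in PBS replicate 2, 1.24 and 1.56 in PBS replicates 1 and 3, and 2.27 to 2.45 in Akk. Its CPM in PBS replicate 2 was 46.2 times the mean of PBS replicates 1 and 3. The median of this ratio was 35.4 for the listed Paneth markers. Which cells the Clps RNA came from was not tested. The goblet cell genes Muc13 and Zg16 and the enteroendocrine genes Gip and Sst, listed as higher in Akk, had their lowest values in PBS replicate 2, and Gcg, listed as lower, its highest. None of 7 tuft cell markers was listed. The part of these cells in the differences above was not tested, and in bulk RNA fewer cells of a type and less RNA per cell cannot be told apart.

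Relative to the proliferation genes, the summed level of the stem cell and Wnt target genes overlapped between the groups outside PBS replicate 2. The ratio of the 2 sums was 0.245, 0.244 and 0.192 in Akk and 0.202 and 0.262 in PBS replicates 1 and 3. In PBS replicate 2 the ratio was 0.684, and 0.198 with Olfm4 left out, where the other libraries had 0.125 to 0.151. Relative to the Paneth markers the ratio was 0.0575, 0.0658 and 0.0534 in Akk, 0.0851 and 0.0806 in PBS replicates 1 and 3, and 0.0679 in PBS replicate 2. With Olfm4 left out it was 0.0345, 0.0341 and 0.0348 in Akk, 0.0544 and 0.0463 in PBS replicates 1 and 3, and 0.0196 in PBS replicate 2, which thus moved from between the groups to the lowest place. These ratios describe the libraries and were not tested.

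**Figure D4:**
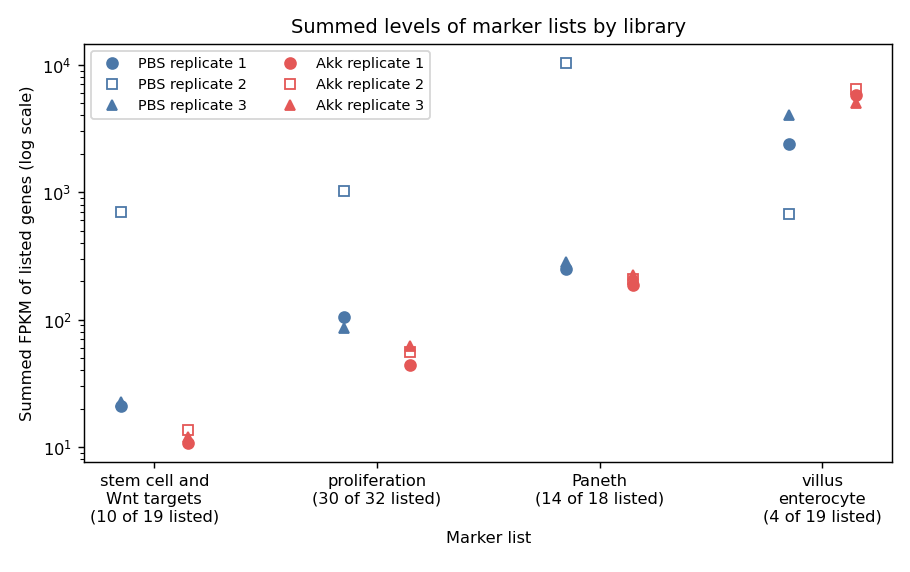
Summed FPKM (log axis) of the listed genes of 4 marker lists in each library; blue is PBS, red is Akk, and the shape gives the replicate number. In PBS replicate 2 (open blue square) the stem cell and Wnt target, proliferation and Paneth lists are far above the other libraries (701, 1024 and 10325) and the villus list is lowest (680). Most of the villus sum in each library is Apoa4 (467 in PBS replicate 2).

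Few other genes of the signalling pathways of the crypt were listed. Of 12 Wnt ligands and secretion genes 1 was listed (Wls), of 16 receptors 2 (Lgr4 and Fzd4), of 16 further Wnt targets 5 (Ccnd1, Ccnd2, Ephb4, Mmp7 and Tgif1), of 12 BMP genes 2 (Id3 and Smad7) and of 9 EGF family genes 1 (Hbegf). None of 24 genes of the destruction complex and Wnt inhibitors, 13 nuclear effectors and 14 Notch genes was listed. With all libraries 0 of the 11 listed genes passed the edgeR test, and without PBS replicate 2, 3 did, 2 lower and 1 higher, where 17.7% and 1.73% of all listed genes passed in these directions.

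Wls, which carries Wnt ligands to the cell surface, had an FPKM of 0.523, 0.394 and 0.623 in Akk and 1.19, 9.21 and 1.32 in PBS. Its log2 fold change was -2.70 (SE 0.970), and -1.13 (SE 0.280; adjusted p = 0.0433) without PBS replicate 2. Ephb4, another Eph receptor, was the other gene that passed as lower, with an FPKM of 0.330, 0.660 and 0.675 against 1.49, 19.4 and 1.26 and a log2 fold change of -3.72 (SE 1.19), which became -1.31 (SE 0.343; adjusted p = 0.045). Hbegf, an EGF receptor ligand, passed as higher: its FPKM was 9.33, 10.6 and 14.4 in Akk and 4.69, 4.00 and 3.55 in PBS. For Hbegf the log2 fold change was 1.49 (SE 0.552), or 1.47 (SE 0.276; adjusted p = 0.0352) without PBS replicate 2, which was not its extreme library.

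The R-spondin receptor Lgr4 had an FPKM of 6.08, 4.06 and 5.80 in Akk and 6.36, 33.6 and 8.72 in PBS. Its log2 fold change was -1.61, or -0.51 (adjusted p = 0.126) without PBS replicate 2, and turned to 0.12 with RLE factors computed from the listed genes. It was below 0 in 15 of the 17 settings tried. The Frizzled receptor Fzd4, listed as higher, had 3.67 and 3.58 in Akk replicates 1 and 2 but 0.973 in replicate 3, below the 1.09 to 1.51 of the PBS libraries; its log2 fold change was 1.01 with PBS replicate 2 and 0.87 without it. The cell cycle genes Ccnd1 and Ccnd2 had log2 fold changes of -3.25 and -1.81, which became -0.86 and -0.84 (adjusted p = 0.0567 and 0.0765) without PBS replicate 2. Mmp7, a metalloproteinase that is also a Paneth marker, and Tgif1, a transcriptional repressor, had -2.86 and -2.49, which became -0.45 and -0.43 (adjusted p = 0.106 and 0.406). The BMP targets Id3 and Smad7 had overlapping groups and log2 fold changes of 0.21 and 0.40, or 0.37 and 0.28 (adjusted p = 0.167 and 0.274) without PBS replicate 2.

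Of 18 further genes described at the crypt base 5 were listed, all as lower, as were 75% of all listed genes: Cdk6, Soat1, Kcnq1, Aqp4 and Krt19. By edgeR 0 of the 5 passed when all libraries were used, and without PBS replicate 2, 2 passed as lower, where 17.7% of all listed genes did. Of the 1040 genes listed as lower, 246 passed there. Bmi1, Hopx, Tert and Mex3a were not listed. Krt19, a keratin, is also the gene counted above as a general epithelial marker. The FPKM of Krt19 was 143, 137 and 162 in Akk and 388, 880 and 305 in PBS, the smallest excess in PBS replicate 2 of the 5. Its log2 fold change was -1.83 (SE 0.489), or -1.23 (SE 0.202) without PBS replicate 2, where it passed (adjusted p = 0.0352). Kcnq1, a potassium channel, passed there too, with -1.22 (SE 0.299; adjusted p = 0.0433), against -3.34 (SE 1.08) with all libraries. Aqp4, a water channel, had 34, 12 and 25 counts in Akk and 57, 1481 and 81 in PBS. Its log2 fold change was -4.72, and -1.58 (adjusted p = 0.0519) without PBS replicate 2. The cell cycle kinase Cdk6 and the sterol acyltransferase Soat1 had -2.34 and -1.82, which became -0.45 and -0.56 (adjusted p = 0.126 and 0.0833).

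**Figure D5:**
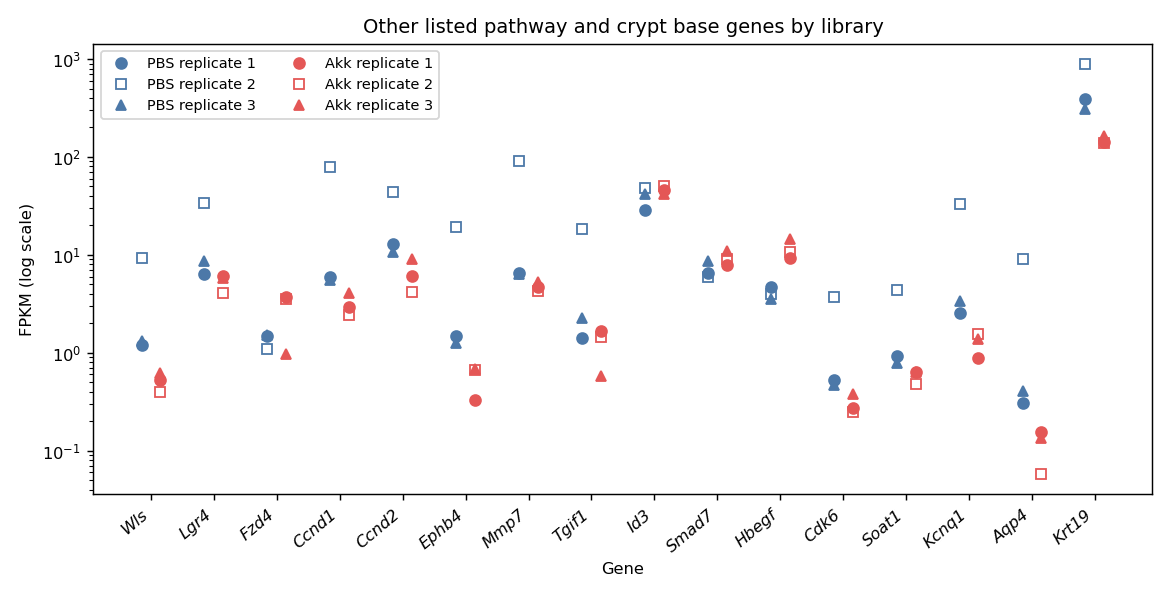
FPKM (log axis) by library of the 16 listed genes of the Wnt, BMP and EGF pathways and of the further crypt base list; blue is PBS, red is Akk, and the shape gives the replicate number. PBS replicate 2 (open blue square) is the highest library for the 12 genes listed as lower, while Hbegf has all Akk libraries (9.33 to 14.4) above all PBS libraries (3.55 to 4.69).

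The genes with a pattern most like that of the 10 were found by the Pearson correlation of log2(FPKM + 0.1) with the mean over the 10. Over the 6 libraries the 5 closest were Rpa1, Eftud2, Spred1, Igsf8 and Anapc5, at r of 0.9991 to 0.9997. Without PBS replicate 2 they were Nol10, Rpl5, Mrps28, Cps1 and Rps14, at r of 0.9986 to 0.9995. The first value rests on PBS replicate 2, and the second mainly on the step between 2 PBS and 3 Akk libraries, which were among the libraries used to select the table. Of the 10 genes themselves, correlated with the mean of the other 9 over the 5 libraries, Smoc2 (0.94) and Slc12a2 (0.91) were closest, and Znrf3 (0.60) and Sox9 (0.37) farthest.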

How the data were processed

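RNA was extracted with Trizol and made into an Illumina mRNA library, per the labels' protocols. The genome build was mm10, per the submitters' processing notes. The aligner, the counter, the gene models and the strand setting are not given in the labels. Whole-number read counts and FPKM were deposited by the authors for all 6 libraries, with column names per the file headers. The deposited table also has the authors' p-value and log2 fold change (Akk over PBS), and holds only genes past a threshold on these libraries. Of its 1386 genes, 1322 have an Ensembl identifier, and 2 lines that name no gene were left out. Coordinates are those of GENCODE M21 (GRCm38, the assembly of mm10).

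The depth of each library was taken from its counts divided by FPKM, over 560 genes with at least 200 counts in every library, and its absolute size from the exon length of 548 of them. It gives CPM and the library sizes. Counts were tested with edgeR 4.0.16 (R 4.3.3; quasi-likelihood F test, filterByExpr), adjusted over all listed genes. Standard errors are the log2 fold change divided by the square root of F. The edgeR fit was also run on simulated counts, drawn with the means and dispersion of the libraries without PBS replicate 2. Such counts hold no library that stands apart, so this run does not check the result of the fit of all libraries. Alternatives were TMM, RLE and upper-quartile factors, other count filters, DESeq2 1.42.0, limma 3.58.1 (voom, or log2 FPKM with a pseudocount of 0.1 or 1), the replicate number as a block, and each library left out in turn. By the naming rule, all listed members and all listed genes of the pathway and crypt base lists are named. The members and lists were chosen with earlier results of these data known.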

Additional observations from a re-analysis of the deposited data

How the results depend on the processing

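The tool and the choice of PBS libraries set how many genes passed the threshold. The count of 0 listed genes became 786 with DESeq2, 2 with limma-voom, 1 with limma on log2(FPKM + 0.1) and 0 with a pseudocount of 1, and 0 to 734 when each library was left out: 734, 270 and 732 for PBS replicates 1, 2 and 3, and 0 for any Akk replicate. For the 10 stem cell and Wnt target genes the count of 0 became 5 with DESeq2 and 0 to 10 with a library left out (9, 4 and 10 without PBS replicates 1, 2 and 3), and for the 11 listed pathway genes 4 with DESeq2 and 0 to 7 (7, 3 and 5). The cause was not tested. The median log2 fold change of the 10 genes, -3.07, was -1.04 with TMM, -0.99 with RLE and -1.54 with upper-quartile factors from the listed genes. It was -2.01 and -1.44 with limma on log2 FPKM (pseudocounts 0.1 and 1), and -3.53 to -0.95 with a library left out. With the TMM, RLE and upper-quartile factors the library size was the summed listed counts in place of the implied depth. The median of all listed genes moved there from -1.85 to -0.17, -0.15 and -0.63. Most listed genes were lower, and the part of this and of the changed library size was not tested. In all 17 settings the log2 fold changes of the 10 genes were below 0. Same-numbered libraries deviated from their group means with correlations of 0.24, -0.08 and -0.30, and 1 of 3 PBS libraries correlated best with its own number. The PBS mean includes PBS replicate 2, which stood apart, so the deviations of PBS replicates 1 and 3 largely mirror it. This check therefore could not decide whether the numbers are pairs, and the main fit did not take them as pairs. With the replicate number as a block 6 listed genes passed and 0 of the 10. The count filters removed no gene. Depth limits Znrf3 most, with 8 to 58 counts outside PBS replicate 2.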

Other observations

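For 4 of the 10 genes the counts and the FPKM of a library did not keep the same ratio. The fragments per unit of FPKM, corrected for depth and set to a mean of 1 over the libraries on the log scale, ran from 0.665 (Akk replicate 1) to 1.14 (Akk replicate 2) for Ephb2. For Cd44 they were 1.19 in Akk replicates 1 and 2 and 0.889 to 0.967 in the other 4 libraries, so that Akk replicate 3 was with the PBS libraries. For Myc they ran from 0.813 (PBS replicate 1) to 1.13 (PBS replicate 3), and for Znrf3 from 0.898 to 1.07. For Olfm4, Smoc2, Slc12a2, Sox9, Cdca7 and Lrig1 they stayed between 0.995 and 1.01. GENCODE M21 annotates 6 transcripts for Ephb2, 9 for Cd44, 8 for Myc and 3 for Znrf3, but also 7 each for Smoc2 and Lrig1. How FPKM was computed is not given in the labels. The log2 ratio of group means without PBS replicate 2 was -1.62 in CPM and -1.33 in FPKM for Ephb2, and -0.75 and -0.91 for Cd44.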
